A study of Mus musculus with 16 samples.

Results

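Liver RNA from mouse offspring was examined for 10 genes of the unfolded protein response and the amino acid response: Atf6, Xbp1, Atf4, Atf5, Ddit3, Hspa5, Herpud1, Trib3, Asns and Chac1. The members were chosen by name, with earlier results of these data known, and all 10 were on the array, among 18707 genes tested. Trib3 and Atf6 had 2 probes each, and the brighter in liver was used. The question was whether these genes differed in the liver of offspring after the dam had inhaled UV-Titan, a nano-sized titanium dioxide, during pregnancy. The 16 animals fell into 4 groups, female UV-Titan (5 animals), female control (3), male UV-Titan (4) and male control (4). All dams were time-mated C57BL/6BomTac mice. The dams of the UV-Titan groups were exposed whole-body from gestation day 8 through 18, each day for 1 hour, to UV-Titan at a level near 42 mg/m3, and the dams of the control groups breathed filtered clean air. Offspring were killed as newborns (postnatal day 2) or at weaning (day 23 or 24), but no label gives the age or the litter of an animal, so the p-values measure the spread between these animals only.

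The unfolded protein response is the reaction of a cell to misfolded proteins in the endoplasmic reticulum, the compartment in which secreted proteins are made. It starts from sensors in the membrane, IRE1, PERK and ATF6, and the liver, which secretes most plasma proteins, depends on it. The amino acid response starts from the kinase GCN2 and meets the PERK arm at ATF4, a transcription factor that then turns on genes for amino acid supply and for cell death. Much of the control lies beyond RNA amounts: Xbp1 RNA is spliced by IRE1, ATF6 is released by proteases, and ATF4 is made by altered translation. The arrays measured RNA amounts only.

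The promoters of some of these genes hold the short elements through which both responses act, and 5 windows are shown because they carry them. Promoters from 250 bases before to 50 bases after the gene start were taken from RefSeq on build GRCm38.p6 for 9 of the 10 genes, with none for Atf6. Both strands were searched for the ER stress element (CCAAT, then 9 bases of any kind, then CCACG), for the second such element (ATTGG, 1 base of any kind, CCACG), for the UPR element core TGACGTGG and for the amino acid response core TGATGNAA. Capitals mark the match, printed on the strand of the gene.
Hspa5 at chr2:34772005-34772063, plus strand, ER stress element: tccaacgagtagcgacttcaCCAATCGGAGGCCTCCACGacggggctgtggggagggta
Herpud1 at chr8:94386357-94386407, plus strand, second ER stress element: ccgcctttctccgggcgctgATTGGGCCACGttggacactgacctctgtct
Herpud1 at chr8:94386297-94386344, plus strand, amino acid response core on the opposite strand: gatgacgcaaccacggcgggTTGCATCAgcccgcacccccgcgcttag
Asns at chr6:7693210-7693252, minus strand, amino acid response core: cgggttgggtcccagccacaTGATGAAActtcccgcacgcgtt
Chac1 at chr2:119351029-119351076, plus strand, amino acid response core on the opposite strand: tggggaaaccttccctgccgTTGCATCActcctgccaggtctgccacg

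The ER stress element of Hspa5 lay at -65 to -47 from the gene start and was found in 0.119% of 32851 promoters of the same length. The second element of Herpud1 lay at -52 to -42 and was found in 0.0365% of promoters. The amino acid response core was found in 3.97% of promoters and lay at -23 to -16 in Asns, at -193 to -186 in Chac1 and at -112 to -105 in Herpud1. In Trib3 it lay after the start, at 15 to 22. The UPR element core, present in 0.676% of promoters, had no match in the 10 promoters searched (Atf5 has 2). None of these matches overlapped another.

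Each liver was hybridised with a universal mouse reference RNA on a two-colour array, and the main measure was the log2 ratio of liver over reference. Liver signal was well above background on 57.7% to 67.1% of spots per array and reference signal on 62.7% to 69.8%. The labels gave opposite dyes in different fields, and the signals settled the channels: hepatocyte markers had a median log2 ratio between 4.89 and 6.17 on the 16 arrays. The sex labels matched Xist and Ddx3y on all 16 arrays. Digestive enzymes of the pancreas stood apart on male control replicates 31 and 33, where the mean of 15 tested marker genes lay 2.55 and 1.53 log2 above the mean over all arrays, against -0.45 to -0.16 on the other arrays. Contractile genes of skeletal muscle lay 2.18 log2 above their mean on male UV-Titan replicate 5. Precision is limited by how many arrays each group had.

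All 10 genes were well above background in both channels on 16 of 16 arrays. Atf5, a transcription factor related to ATF4 that is abundant in liver, was higher in liver than in the reference on every array, with a mean log2 ratio of 2.31 and a range of 1.96 to 2.74. Herpud1, a membrane protein of the degradation machinery of the endoplasmic reticulum, was higher in liver on every array too, with a mean of 1.77 and a range of 1.28 to 2.26. A ratio above 0 on all 16 arrays was seen for these 2 of the 10 genes and for 39% of all genes tested. A ratio below 0 on all 16 arrays was seen for 5 of the 10 genes and for 31% of all genes tested. These were Chac1 with a mean log2 ratio of -3.43, Trib3 with -1.89, Ddit3 with -1.45, Atf4 with -1.44 and Asns with -0.22. The sign was the same on every array under each scaling tried for Atf5, Herpud1, Chac1, Trib3, Ddit3 and Atf4, but Asns lay above 0 on 9 arrays with median centring. Hspa5 (mean 0.17), Xbp1 (-0.03) and Atf6 (-0.23) lay near the level of the reference, and Hspa5 was below 0 on all arrays in the authors' value table. The reference is a pool of RNA from other sources, so these ratios describe liver against that pool. In whole liver, fewer cells of a type and less RNA per cell cannot be told apart.

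**Figure D1:**
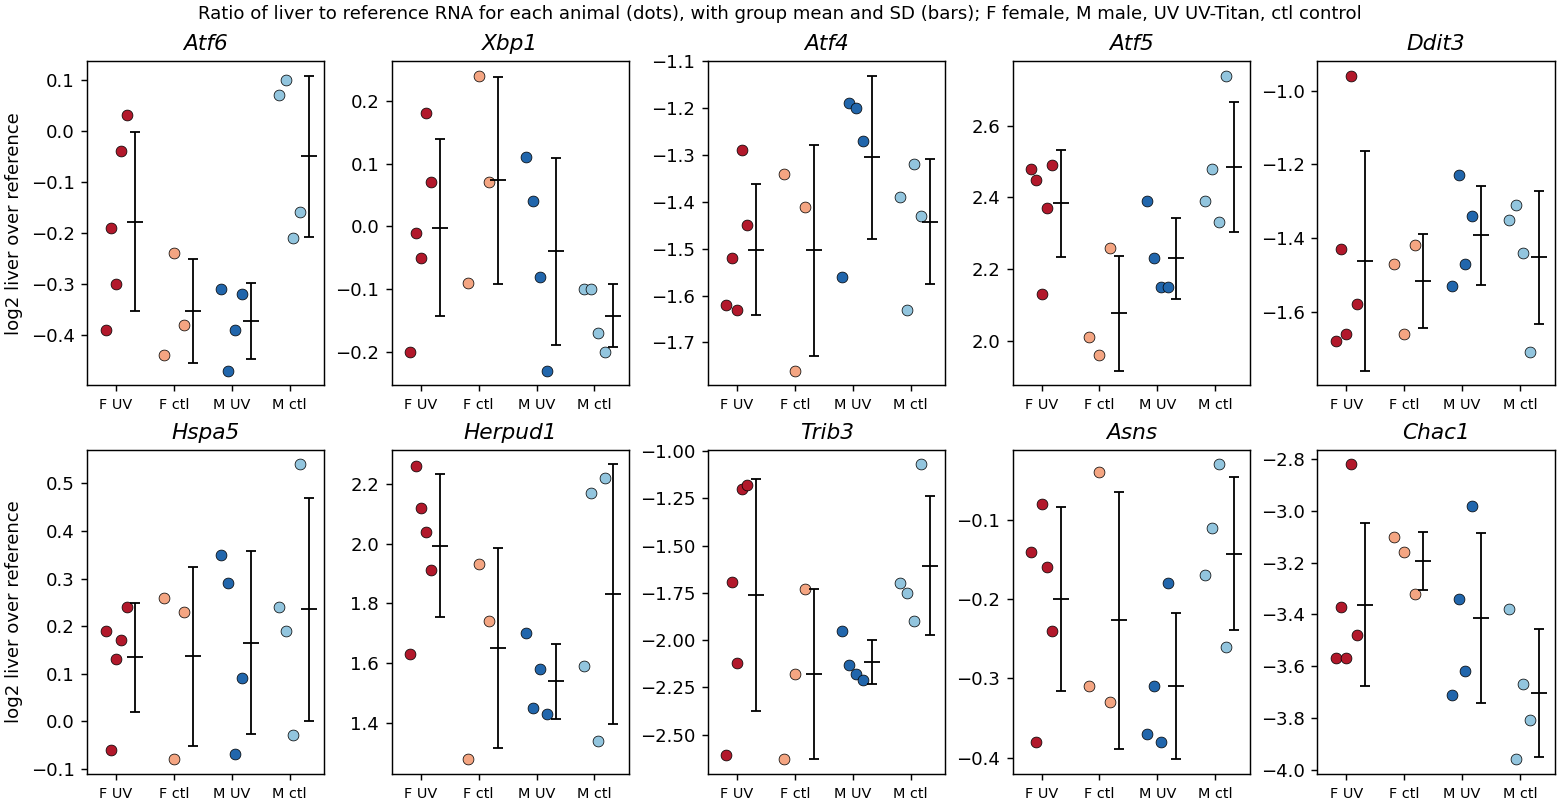
Log2 ratio of liver over reference RNA of the 10 genes (1 panel each, vertical axes differ) for each animal in the 4 groups, with the group mean and SD as bars. Trib3 has the widest spread, from -2.63 to -1.07, and its 4 male UV-Titan animals lie below its 4 male controls.

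No gene of the 10 differed between UV-Titan and control offspring after adjustment over all genes, in either sex. In limma, 0 of 10 were called in females and 0 of 10 in males, where 0% of the 18707 genes tested were called in either comparison. The smallest adjusted p among the 10 was 0.65 in females and 0.95 in males. At an unadjusted p below 0.05, 1 of the 10 was higher in UV-Titan females (Atf5), against 5.48% of all genes, and 2 were lower in UV-Titan males (Atf6 and Atf5), against 1.8% of all genes. Of the 10, 7 had a higher mean in UV-Titan females, against 58.7% of all genes, and 4 in UV-Titan males, against 56.8%. The median difference of the 10 was 0.04 log2 in females and -0.12 log2 in males, and that of all genes 0.02 in both sexes. Averaged over both sexes, the differences of the 10 ranged from -0.07 to 0.07 log2, and 0 of 10 were called in limma, against 0% of all genes. At an unadjusted p below 0.05 there were 0 of 10, against 7.08% of all genes in either direction. No gene of the 10 had female groups without overlap, which was seen in 3.23% of all genes with UV-Titan higher and 1.01% with UV-Titan lower.

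**Figure D2:**
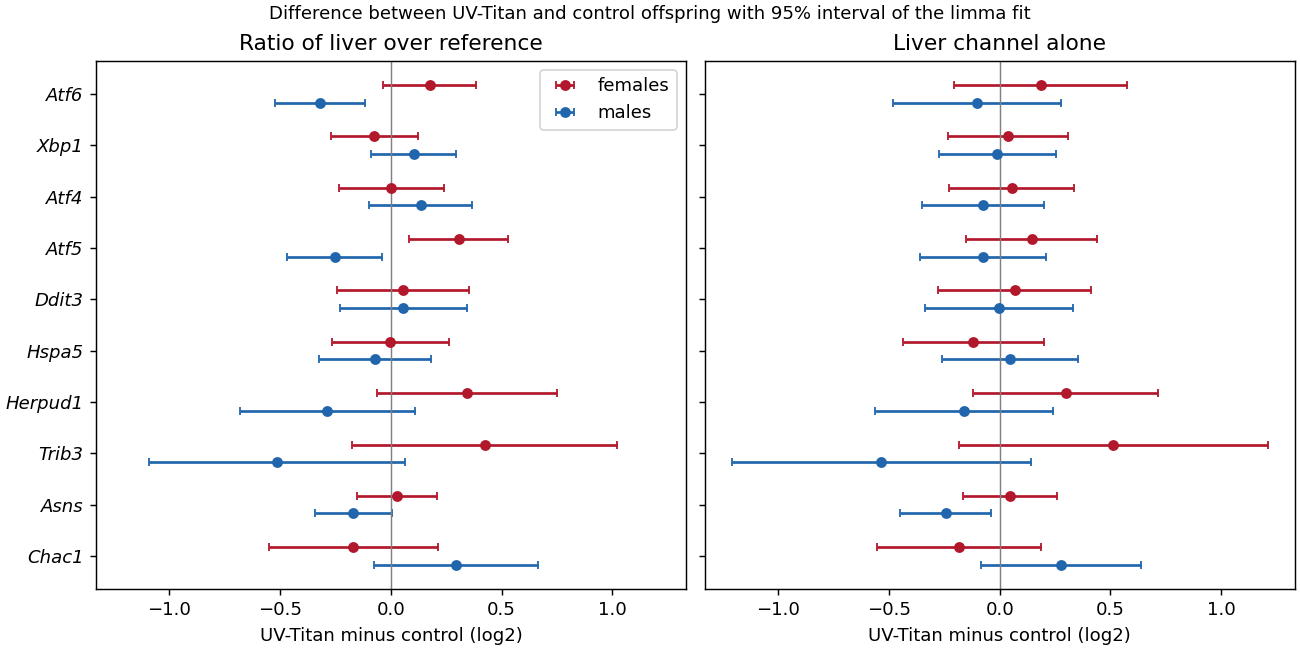
Difference between UV-Titan and control offspring in log2 units for each gene in females and males, with the 95% interval of the limma fit, for the log2 ratio (left) and for the liver channel alone (right). In both panels Trib3, Herpud1, Atf5, Atf6 and Asns have a positive value in females and a negative one in males, and most intervals include 0.

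Atf6, the membrane-bound sensor whose released part switches on chaperone genes, had the smallest unadjusted p of the 10 in males. On the female UV-Titan arrays (replicates 2, 8, 10, 16 and 21, an order kept below) its log2 ratio was -0.39, -0.19, -0.30, -0.04 and 0.03, against -0.44, -0.24 and -0.38 on the female control arrays (replicates 25, 35 and 40). These groups overlapped. On the male UV-Titan arrays (replicates 3, 4, 5 and 17) it was -0.31, -0.47, -0.39 and -0.32, against 0.07, 0.10, -0.21 and -0.16 on the male control arrays (replicates 31, 33, 41 and 43). The male groups did not overlap. The difference was 0.18 ± 0.10 log2 (SE) in females, with limma adjusted p = 0.794, and -0.32 ± 0.10 log2 in males, with adjusted p = 0.95. The 2 highest of the 16 values were on male control replicates 31 and 33, the arrays with high pancreas markers. Without these, the male difference was -0.19 log2; the part of pancreas RNA in it was not tested. In males the reference channel for Atf6 was 0.23 log2 higher on UV-Titan than on control arrays.

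Xbp1 encodes the factor whose RNA IRE1 splices. Its log2 ratio was -0.20, -0.01, -0.05, 0.18 and 0.07 in UV-Titan females, against -0.09, 0.24 and 0.07 in control females. In males it was 0.11, 0.04, -0.08 and -0.23 with UV-Titan, against -0.10, -0.10, -0.17 and -0.20 in controls. Both pairs of groups overlapped. The differences were -0.07 log2 in females (95% interval -0.27 to 0.12) and 0.10 log2 in males (-0.09 to 0.30). The splicing of Xbp1 was not analysed here.

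Atf4, the factor shared by the PERK and GCN2 arms, differed little. Atf4 stood at log2 ratios of -1.62, -1.52, -1.63, -1.29 and -1.45 in UV-Titan females, against -1.34, -1.76 and -1.41 in control females. It was -1.56, -1.19, -1.20 and -1.27 in UV-Titan males, against -1.39, -1.63, -1.32 and -1.43 in control males. The groups of each sex overlapped, and the 95% interval of the difference was -0.24 to 0.24 log2 in females and -0.10 to 0.37 log2 in males. Ddit3 encodes CHOP, a factor that ATF4 induces and that promotes cell death under lasting stress. Ddit3 stood at log2 ratios of -1.68, -1.43, -1.66, -0.96 and -1.58 in UV-Titan females, against -1.47, -1.66 and -1.42 in control females. It was -1.53, -1.23, -1.47 and -1.34 in UV-Titan males, against -1.35, -1.31, -1.44 and -1.71 in control males. Its groups overlapped too, and the intervals were -0.24 to 0.35 log2 in females and -0.23 to 0.35 log2 in males.

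Atf5, which is translated under stress in the same way as ATF4, had the smallest unadjusted p of the 10 in females. Its log2 ratio was 2.48, 2.45, 2.13, 2.37 and 2.49 in UV-Titan females, against 2.01, 1.96 and 2.26 in control females. In males it was 2.39, 2.23, 2.15 and 2.15 with UV-Titan, against 2.39, 2.48, 2.33 and 2.74 in controls. In females 4 of the 5 UV-Titan values lay above all 3 controls, and in males 3 of the 4 UV-Titan values lay below all 4 controls. The difference was 0.31 ± 0.11 log2 in females (limma adjusted p = 0.65) and -0.25 ± 0.10 log2 in males (adjusted p = 0.95). Without male control replicate 43, which had the highest value of all, the male difference was -0.17 log2.

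Among the proteins of the endoplasmic reticulum, Hspa5 encodes BiP, the main chaperone of that compartment and the usual readout of the response. Its log2 ratio was 0.19, -0.06, 0.13, 0.17 and 0.24 in UV-Titan females, against 0.26, -0.08 and 0.23 in control females. In males it was 0.35, 0.29, -0.07 and 0.09 with UV-Titan, against 0.24, 0.19, -0.03 and 0.54 in controls. The groups overlapped over most of their range, and the 95% interval of the difference was -0.26 to 0.26 log2 in females and -0.33 to 0.18 log2 in males. Herpud1, whose promoter holds both kinds of element shown above, was more spread. Herpud1 stood at log2 ratios of 1.63, 2.26, 2.12, 2.04 and 1.91 in UV-Titan females, against 1.28, 1.93 and 1.74 in control females. It was 1.70, 1.45, 1.58 and 1.43 in UV-Titan males, against 1.59, 2.17, 1.34 and 2.22 in control males. Both pairs overlapped, and in males the 2 high controls were replicates 33 and 43. The differences were 0.34 ± 0.19 log2 in females (limma adjusted p = 0.794) and -0.29 ± 0.19 log2 in males (adjusted p = 0.955). The female value was 0.16 log2 without control replicate 25, and the male value was -0.16 log2 without control replicate 43.

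Trib3, a pseudokinase that CHOP and ATF4 induce and that restrains insulin signalling, had the largest differences in size and the largest error. Its log2 ratio was -2.61, -1.69, -2.12, -1.20 and -1.18 in UV-Titan females, against -2.63, -2.18 and -1.73 in control females. It was -1.95, -2.13, -2.18 and -2.21 in UV-Titan males, against -1.70, -1.75, -1.90 and -1.07 in control males. The female groups overlapped, with 3 of the 5 UV-Titan values above all 3 controls, whereas all 4 UV-Titan males lay below all 4 control males, by a narrow gap. Groups that did not overlap, with UV-Titan lower, were seen in males for 2 of the 10 genes (Trib3 and Atf6), against 1.08% of all genes. The difference was 0.42 ± 0.28 log2 in females (limma adjusted p = 0.846) and -0.52 ± 0.27 log2 in males (adjusted p = 0.95). Leaving out 1 array at a time gave 0.20 to 0.65 log2 in females, the ends being without control replicates 25 and 40. In males it gave -0.61 to -0.34 log2, the smallest difference being without control replicate 43.

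Asns encodes asparagine synthetase, a target of ATF4 through the element shown above. Asns stood at log2 ratios of -0.14, -0.38, -0.08, -0.16 and -0.24 in UV-Titan females, against -0.31, -0.04 and -0.33 in control females. It was -0.37, -0.31, -0.38 and -0.18 in UV-Titan males, against -0.17, -0.11, -0.03 and -0.26 in control males. In males 3 of the 4 UV-Titan values lay below all controls, and the difference was -0.17 ± 0.08 log2 (limma adjusted p = 0.95). In females the interval was -0.15 to 0.21 log2. Chac1, an enzyme that breaks down glutathione and lies downstream of ATF4, was the lowest against the reference. Chac1 stood at log2 ratios of -3.57, -3.37, -3.57, -2.82 and -3.48 in UV-Titan females, against -3.10, -3.16 and -3.32 in control females. It was -3.71, -3.34, -3.62 and -2.98 in UV-Titan males, against -3.38, -3.96, -3.67 and -3.81 in control males. In females 4 of the 5 UV-Titan values lay below all controls, and the differences were -0.17 ± 0.18 log2 in females and 0.29 ± 0.17 log2 in males, with limma adjusted p = 0.912 and 0.955.

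The female difference minus the male difference was above 0 for 6 of the 10 genes. It was 0.50 ± 0.14 log2 for Atf6, 0.56 ± 0.15 for Atf5, 0.63 ± 0.27 for Herpud1 and 0.94 ± 0.39 for Trib3. Asns had 0.20 ± 0.12 and Hspa5 0.07 ± 0.17. Chac1 lay furthest the other way, at -0.46 ± 0.25 log2, and Xbp1, Atf4 and Ddit3 were at -0.18, -0.13 and -0.003. None passed: the smallest limma adjusted p of the 10 was 0.979, and 0% of all genes were called. At an unadjusted p below 0.05, 4 of the 10 were higher (Atf6, Atf5, Herpud1 and Trib3), against 2.58% of all genes, but the members were chosen with earlier results of these data known. For these 4 genes the sign was positive in females and negative in males under every alternative run other than the reference channel alone. The dimmer probe of Atf6, fitted apart from these and described below, had -0.03 ± 0.08 log2 in females. Within slides, which hold 1 UV-Titan and 1 control array of a sex at most, the signs were less even. For Trib3 the UV-Titan minus control difference was -0.39, -0.43 and 1.43 log2 on the 3 slides with both groups of females, and -0.88, -0.48 and -0.24 on the 3 slides with both groups of males. For Atf5 it was -0.13, 0.52 and 0.36 in females and -0.35, -0.24 and -0.09 in males. For Atf6 it was 0.08, -0.16 and 0.41 in females and -0.15, -0.45 and -0.26 in males. For Herpud1 it was 0.38, -0.29 and 0.76 in females and -0.52, 0.00 and 0.12 in males. Thus in the ratio the female differences had mixed signs within slides for all 4 genes. The male ones were below 0 on every slide for Trib3, Atf5 and Atf6. In the liver channel, however, Atf5 was 0.06 log2 on 1 of the male slides. Another male slide paired control replicate 31, high in pancreas markers, with UV-Titan replicate 5, high in muscle markers. With slide as a block the female value of Trib3 was 0.28 log2, and with array weights it was 0.13 log2.

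The median differences of hepatocyte markers in the log2 ratio had the same signs as these 4 genes. Of 17 tested markers, 17 had a higher mean ratio in UV-Titan females, with a median difference of 0.55 log2. In UV-Titan males 3 had a higher mean, with a median of -0.21 log2, and limma called 0 of the markers. Averaged over the markers, the ratio was 5.82, 5.67, 6.11 and 4.90 in UV-Titan males, against 6.15, 5.70, 5.74 and 5.68 in control males. The group medians of this average had the reverse order, 5.745 with UV-Titan and 5.72 in controls, and UV-Titan replicate 17 was the lowest array. In the liver channel alone the median difference was 0.06 log2 in females and 0.04 log2 in males. There their summed level ranged from 2511000 to 2785000 in UV-Titan females and from 2443000 to 2651000 in control females. In males it was 2516000 to 2713000 with UV-Titan and 2443000 to 2757000 in controls, so the groups overlapped. Summed pancreas markers were 12910 to 18000 in UV-Titan males and 14580 to 49960 in control males. Markers of megakaryocytes were higher in UV-Titan females for 12 of 12 tested genes (median 0.54 log2) and those of granulocytes for 13 of 13 (0.52). In UV-Titan males they were higher for 12 of 12 (median 0.17) and 8 of 13 (0.04), again with 0 called by limma in either sex. The part of any of these lists in the values of the 4 genes was not tested.

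The liver channel was also taken alone, without the reference. For Atf5 it gave 0.14 ± 0.14 log2 in females and -0.08 ± 0.13 log2 in males, and for Atf6 0.19 ± 0.18 and -0.10 ± 0.18. For Herpud1 it gave 0.30 ± 0.20 and -0.16 ± 0.19. The male values of these 3 genes were thus nearer 0 than in the ratio, and in females that of Atf6 was not. Trib3 had a similar size on both measures, with 0.51 ± 0.33 log2 in females and -0.53 ± 0.32 log2 in males. Its liver-channel log2 level was 9.86, 10.65, 10.12, 11.25 and 11.49 in UV-Titan females, against 9.71, 10.14 and 10.64 in control females. It was 10.62, 10.35, 10.13 and 10.18 in UV-Titan males, against 10.73, 10.52, 10.58 and 11.57 in control males. On this measure the male groups of Trib3 overlapped, because UV-Titan replicate 3 lay among the controls. The level of Asns in the liver channel was 14.26, 14.44, 14.41 and 14.21 in UV-Titan males, against 14.63, 14.61, 14.68 and 14.37 in control males, a difference of -0.24 ± 0.10 log2 (limma adjusted p = 1). In the liver channel 0 of the 10 genes were called in either sex and 0% of all genes were. At an unadjusted p below 0.05 there were 0 of 10 in females, against 3.14% of all genes, and 1 of 10 in males (Asns, lower), against 1.72% of all genes. The female minus male difference had 1 of 10 at that level (Trib3, 1.05 ± 0.46 log2), against 1.28% of all genes, with limma adjusted p = 0.971 and 0% of all genes called. In this channel 8 of the 10 had a higher mean in UV-Titan females and 2 in UV-Titan males, against 49.8% and 50.4% of all genes. Groups of males without overlap numbered 0 of 10, against 0.898% of all genes with UV-Titan lower.

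Trib3 and Atf6 each had a second, dimmer probe on the array, which gives another reading of the same gene. The Trib3 probes lie at chr2:152078476-152078535 (used) and chr2:152079146-152079205 on the minus strand of build mm7. Their deviations from group means ran closely together over the 16 arrays (r = 0.91). The dimmer probe had the same signs at smaller size, 0.18 ± 0.15 log2 in females and -0.16 ± 0.15 log2 in males. Its male groups overlapped, since UV-Titan replicate 17 at -1.34 lay above 3 of the controls, at -1.45, -1.37 and -1.39. The Atf6 probes lie at chr1:170684024-170684083 (used) and chr1:170685339-170685398 on the minus strand, and their deviations had r = 0.70. The dimmer Atf6 probe gave -0.03 ± 0.08 log2 in females and -0.05 ± 0.08 log2 in males, and its male groups overlapped. The female minus male difference was 0.34 ± 0.21 log2 for the dimmer Trib3 probe and 0.02 ± 0.12 log2 for the dimmer Atf6 probe, with limma adjusted p = 0.993 and 0.999 over 41173 probes. The 2 probes of Atf6 thus disagreed on the sign of the female difference and on the size of both differences. The array files do not place either probe in an exon or a UTR.

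**Figure D3:**
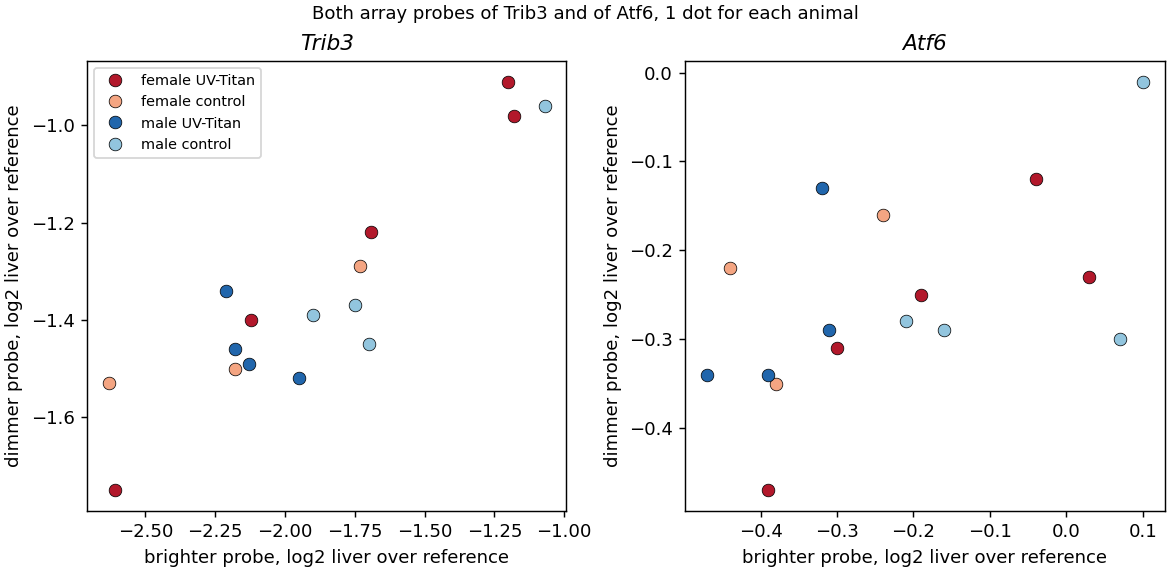
Log2 ratio of liver over reference of the dimmer probe (vertical) against the brighter probe (horizontal) for Trib3 and Atf6, 1 dot for each animal coloured by group. The Trib3 probes fall along 1 line with the same 3 animals at the top right, and on neither dimmer probe are the male groups apart.

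The spread between arrays of the same group was larger for some of these genes than for a typical gene. The SD within groups of the liver channel was 0.521 log2 for Trib3, 0.301 for Herpud1, 0.281 for Atf6 and 0.265 for Chac1, and the median over all genes was 0.166. In the reference channel, which received the same RNA on every array, the SD was 0.134 log2 for Trib3, 0.139 for Herpud1 and 0.0607 for Chac1, with a median over all genes of 0.11. The signal of Chac1 as scanned was 261 to 490 in liver and 2190 to 2703 in the reference, and the part of dim signal in its liver SD was not tested. Atf6 had an SD of 0.231 log2 in the reference channel, so its liver spread cannot be read as a difference between animals. In the log2 ratio the SD within groups was 0.14 for Atf6, near the median of 0.127 over all genes. It was 0.443 for Trib3, 0.297 for Herpud1 and 0.277 for Chac1. Asns was the most even of the 10, with an SD of 0.13 log2 in liver and 0.115 log2 in the reference. High Trib3 was seen on female UV-Titan replicates 16 and 21 and on male control replicate 43, where its log2 ratio was -1.20, -1.18 and -1.07. Male control replicate 43 had the highest of the 16 values for Atf5 and Hspa5 as well (2.74 and 0.54), and the second highest for Herpud1 (2.22). Other members were low on that array: its Ddit3 was the lowest of the 16 (-1.71) and its Chac1 the second lowest (-3.81). Its Xbp1 was -0.20 and its Asns -0.26.

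**Figure D4:**
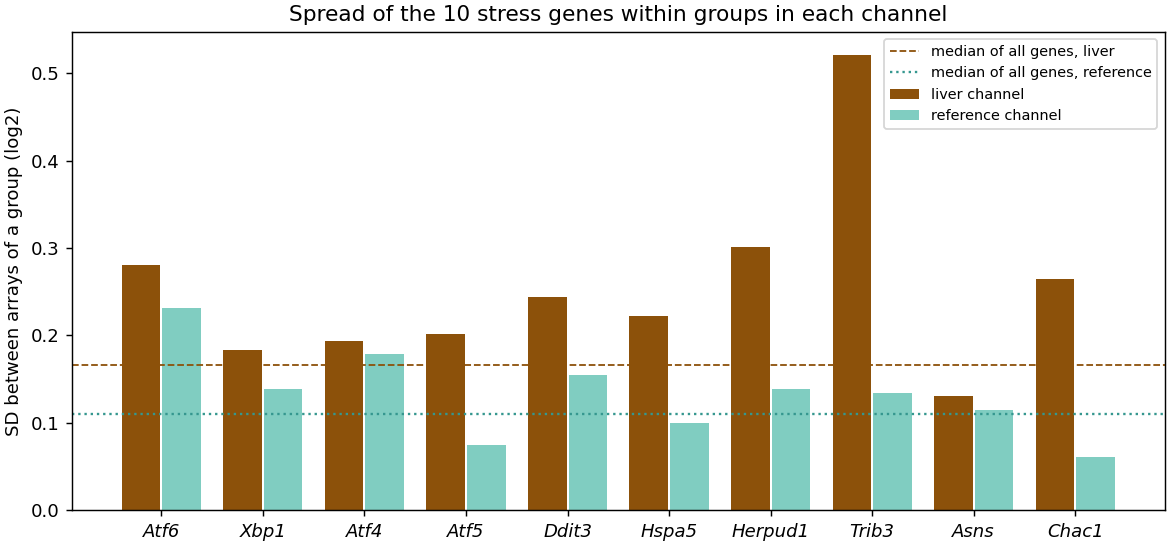
SD between arrays of a group (log2) for each gene, as 1 bar for liver and 1 for reference RNA, with dashed and dotted lines at the medians of all genes, 0.166 and 0.11. Trib3 stands highest in liver (0.521) with an ordinary spread in the reference (0.134), and Atf6 is spread in both channels.

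Whether the 10 genes varied together between animals was examined over the 16 arrays after group means were removed. Of 45 pairs, 27 had a correlation above 0, 7 had a permutation p below 0.05, and 0 passed after Benjamini-Hochberg adjustment, by Pearson's r or by Spearman's rho. Ddit3 and Chac1, both downstream of ATF4, had r = 0.68 and rho = 0.51 in the ratio (adjusted permutation p = 0.241 and 0.335). Their r was 0.78 in the liver channel, and 0.48 in the ratio without the 2 arrays farthest from the median of Ddit3. Atf5 and Hspa5 had r = 0.63 and rho = 0.70 in the ratio (adjusted permutation p = 0.241 and 0.217) and r = 0.75 in the liver channel. Atf5 and Asns ran against each other, with r = -0.65 and rho = -0.64 in the ratio (adjusted permutation p = 0.241 and 0.217) and r = -0.63 in the liver channel. Atf6 and Xbp1 had r = 0.62 and rho = 0.64 in the ratio (adjusted permutation p = 0.241 for r), but r = -0.34 in the liver channel. Arrays share the reference RNA and the slide, which such correlations also carry.

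The genes most like each member were ranked by r over the 16 arrays among 18679 genes. For Trib3 the first was Slc17a2, of the sodium-phosphate transporter family, with r = 0.88 in the ratio and 0.75 in the liver channel. For Herpud1, Dbt, a subunit of the enzyme that breaks down branched-chain amino acids, had r = 0.91 and 0.90. For Atf6, Zcchc7 had 0.89 and 0.93, while Ak4, ranked first at 0.90, had 0.19 in the liver channel. For Chac1, Trbv14 had 0.93 and 0.78. For Asns the first in the ratio was Hnrnpm at 0.94, which had -0.40 in the liver channel. Over the 3 nearest genes of each member, r in the liver channel ranged from -0.40 to 0.93, so likeness in the ratio did not always hold without the reference.

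The surrounding pathways were read from 8 lists of genes, and 0 genes of any list were called by limma in either sex, against 0% of all genes. For the counts of these lists, 58.7% of all genes had a higher mean in UV-Titan females and 56.8% in UV-Titan males. In the liver channel these shares were 49.8% and 50.4%. Of 29 tested genes of the amino acid response and ATF4 targets, 15 had a higher mean in UV-Titan females (median 0.00 log2) and 12 in UV-Titan males (median -0.02). At an unadjusted p below 0.05, 3 were higher in females, against 5.48% of all genes, and 4 lower in males, against 1.8% of all genes. In the liver channel 0 were at that level in females, against 3.14% of all genes in either direction. In males 1 was lower, against 1.72% of all genes, and 1 was higher. Fgf21, the hormone that the liver releases in fasting and amino acid shortage, had the largest female difference of those named, 1.17 ± 0.53 log2 in the ratio and 1.19 ± 0.58 in the liver channel (limma adjusted p = 0.711 and 0.999). Cth, which makes cysteine, had 0.24 ± 0.11 log2 in females and -0.30 ± 0.10 log2 in males. Psat1, an enzyme of serine synthesis, had -0.27 ± 0.12 log2 in males, and Eif2ak4, which encodes GCN2, had -0.14 ± 0.06. Each of the 3 had a limma adjusted p of 0.95 in males, so these values passed at the unadjusted level only. In the liver channel Cth had 0.15 ± 0.20 log2 in females and -0.17 ± 0.19 log2 in males. There Psat1 had -0.22 ± 0.13 log2 and Eif2ak4 -0.09 ± 0.09 log2 in males.

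The tRNA synthetases, which ATF4 induces in part, had a higher mean for 6 of 20 genes in UV-Titan females and 14 of 20 in UV-Titan males in the ratio. In the liver channel the counts turned round, with 11 of 20 in UV-Titan females and 4 of 20 in UV-Titan males (medians 0.01 and -0.05 log2). Dars, Lars and Eprs were lower in males at an unadjusted p below 0.05 (3 of 20, against 1.8% of all genes), with -0.36 ± 0.11, -0.21 ± 0.08 and -0.21 ± 0.08 log2, although the list median was 0.03. In the liver channel they had -0.05 ± 0.23, -0.12 ± 0.09 and -0.05 ± 0.14 log2. Among 20 chaperones and folding enzymes of the endoplasmic reticulum, 10 had a higher mean in UV-Titan females and 9 in UV-Titan males. The medians were 0.01 and -0.01 log2. At an unadjusted p below 0.05 there were 0 of 20, against 5.48% of all genes higher in females and 1.8% lower in males. Of 18 genes of ER-associated degradation, 13 had a higher mean in UV-Titan females and 6 in UV-Titan males, against 58.7% and 56.8% of all genes. The medians were 0.03 and -0.01 log2. In the liver channel these counts were 9 and 5. Selenos, a subunit of that machinery, had 0.24 ± 0.09 log2 in females (limma adjusted p = 0.684).

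The sensors and proteases had a higher mean for 7 of 12 genes in UV-Titan females and 4 of 12 in UV-Titan males, with medians of 0.08 and -0.06 log2. Creb3l3, a liver relative of Atf6, had 0.40 ± 0.19 log2 in females in the ratio but -0.03 ± 0.09 log2 in the liver channel. For the translocon and signal sequence receptor the counts were 11 and 9 of 19, with medians of 0.01 and -0.01 log2, against 7 and 10 in the liver channel. Sec62 had -0.28 ± 0.11 log2 in males in the ratio and -0.06 ± 0.26 log2 in the liver channel. For genes related to CHOP and TRIB they were 6 and 3 of 8, with medians of 0.07 and -0.02 log2. Among these, Cebpa, a transcription factor of hepatocytes, had 0.30 ± 0.13 log2 in females in the ratio and 0.02 ± 0.11 log2 in the liver channel. The cytosolic heat shock proteins, which answer misfolding outside the endoplasmic reticulum, had a higher mean for 3 of 10 genes in UV-Titan females and 8 of 10 in UV-Titan males. Over all genes these shares were 58.7% and 56.8%. The medians of the list were -0.02 and 0.09 log2. Hspa1a had -0.27 ± 0.15 log2 in females (limma adjusted p = 0.797) and Hsph1 0.27 ± 0.15 log2 in males (adjusted p = 0.95). Neither had an unadjusted p below 0.05.

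Between the sexes, with both exposures averaged, 0 of the 10 genes were called by limma, against 0.0481% of all genes (9 genes). Chac1 was the 1 member at an unadjusted p below 0.05, lower in males, against 1.97% of all genes, with a male minus female difference of -0.28 ± 0.13 log2 (adjusted p = 0.977). The means behind it were -3.41 ± 0.33 in UV-Titan males and -3.71 ± 0.24 in control males (SD, n = 4 each), and -3.36 ± 0.32 in UV-Titan females (n = 5) and -3.19 ± 0.11 in control females (n = 3). The other 9 genes had differences between -0.14 and 0.13 log2.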

How the data were processed

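Liver RNA of 16 mouse offspring was measured with two-colour Agilent mouse oligonucleotide arrays, 1 per animal, from 200 ng of total RNA against a universal mouse reference. Mean spot intensity and background intensity were deposited as scanned in Agilent Feature Extraction 9.5.3.1, per the labels; the processed intensity had been background-subtracted, detrended and dye-normalised, per the file headers. The authors' log10 ratio of red over green in these files was not used. A second deposited file holds log2 ratios of the same arrays, with normalisation not given in the sources used here (column medians -0.045 to -0.0375, r 0.992 to 0.994 with the loess ratio without background correction). Red was read as liver.

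Both channels were corrected with normexp (offset 50) and the ratio with loess within arrays in limma 3.58.1 (R 4.3.3), with control spots at weight 0 and 90 to 135 outlier spots per array left out. No spot was saturated. Probes needed a liver signal well above background on 3 or more arrays, and the brightest such probe stood for its gene, which left 18707 genes. One fit held a mean for each of the 4 groups, with two-sided tests, p-values adjusted across the genes by Benjamini-Hochberg, and 0.05 as threshold. The fit was tested on simulated data. The liver channel alone was quantile-normalised. Correlations used 100000 permutations within groups. The alternatives were slide and scan day (5 slides, 4 days), background correction, scaling, channel, probe filter and rule, array weights and left-out arrays.

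The members, lists and tests were chosen with earlier results of these data known. Named were all 10 members, up to 3 genes per list and sex by smallest unadjusted p, and the 3 genes most like each member; the text gives a selection. Names come from accessions matched to GRCm38.p6 for 12165 genes, otherwise from the array files.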

Additional observations from a re-analysis of the deposited data

Results flagged for a closer look

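In 60 sets of 4 or 5 values of a gene in 1 group, the highest or lowest was tested for a gap to the others by Dixon's criterion, which chance passes in about 1 of 20 sets. It was passed in 5 sets. Chac1 on female UV-Titan replicate 16 had a log2 ratio of -2.82, where the other 4 animals lay between -3.57 and -3.37, and its liver-channel level of 8.90 log2 stood above the others in the same way. Herpud1 on female UV-Titan replicate 2 had a liver-channel level of 14.21 log2, below the other 4 animals of its group. Atf5 on male UV-Titan replicate 5, the array with high muscle markers, had a liver-channel level of 16.54 log2, below the other 3. Atf5 on male control replicate 43 had 17.19 log2, above the other 3. The same liver had the highest Trib3 and the lowest Ddit3 log2 ratio of the 16 animals. The causes were not tested.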

How the results depend on the processing

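No alternative made any of the 10 genes pass, among slide or scan day as a block, scalings, channels, filters, array weights and each array left out. The count of all genes called in females was 0, and 1 with slide, 1 with scan day as a block, 6 with array weights and 0 to 1 with an array left out (1 without female UV-Titan replicate 21 or male control replicate 43). In males it was 0, and 1 with Feature Extraction processed signals. Over both sexes it was 0, and 1 with slide, 10 with scan day as a block, 1 without background correction, 6 with array weights and 0 to 11 with an array left out (11 without male control replicate 43, 3 without female control replicate 35). The count between the sexes was 9, and 0 in the reference channel alone and 3 with probes well above background on all 16 arrays. Median centring moved the median difference of all genes to 0.27 log2 in females and -0.089 in males, and to 0.14 in females in the liver channel.

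Some values changed sign, among them that of Chac1 for females minus males, -0.46 log2 in the ratio. With median centring Xbp1 was 0.29 log2 in females, -0.055 in males and 0.35 for females minus males; Atf4 was -0.026 in males and 0.39 for females minus males; Ddit3 was -0.096 in males and 0.49 for females minus males; Hspa5 was 0.38 and Chac1 0.16 in females, and Chac1 0.017 for females minus males. In the median-centred liver channel Xbp1 was 0.29 in females, -0.064 in males and 0.36 for females minus males. There Atf4 was -0.12 in males and 0.42 for females minus males, Ddit3 -0.044 and 0.33, and Hspa5 0.16 in females. In the quantile-normalised liver channel Xbp1 was 0.038 in females, -0.01 in males and 0.048 for females minus males, Atf4 -0.075 in males and 0.13 for females minus males, Ddit3 -0.005 and 0.073, and Hspa5 0.045 and -0.17. Without background correction Atf4 was -0.0047 in females and Ddit3 0.017 for females minus males. With processed signals these were -0.022 and 0.023, and in the authors' value table -0.032 and 0.013, where Hspa5 was -0.037 for females minus males and Asns -0.062 in females. With array weights Atf4 was -0.076 and Ddit3 -0.055 in females. With scan day as a block Ddit3 was -0.019 in males and 0.099 for females minus males, and Hspa5 0.015 in females. With slide as a block Ddit3 was 0.11 for females minus males.

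The reference channel alone, which holds no liver RNA, gave in males 0.23 for Atf6, -0.10 for Xbp1, -0.18 for Atf4, 0.12 for Atf5, -0.039 for Ddit3, 0.16 for Hspa5, 0.13 for Herpud1 and 0.025 for Trib3. In females it gave 0.14 for Xbp1 and -0.06 for Atf5. For females minus males it gave -0.19 for Atf6, 0.24 for Xbp1, 0.25 for Atf4, -0.18 for Atf5, 0.075 for Ddit3, -0.23 for Hspa5 and -0.13 for Herpud1. With an array left out, values that crossed 0 ranged in females from -0.023 to 0.12 for Asns, -0.13 to 0.087 for Atf4, -0.072 to 0.11 for Ddit3, -0.11 to 0.06 for Hspa5 and -0.15 to 0.0082 for Xbp1. In males they ranged from -0.029 to 0.10 for Ddit3 and -0.16 to 0.031 for Hspa5, and for females minus males from -0.13 to 0.082 for Ddit3 and -0.037 to 0.16 for Hspa5. The cause of these changes was not tested. No pairing by replicate number was possible because the groups share none, so slide was used instead, as a block and for differences within slides. The correlation count was 0 in the liver channel and with slide means removed. Signal over background limits Chac1 most, whose liver signal as scanned was 261 to 490.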
